A study of Bos taurus with 15 samples.

Results

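Immediate-early transcription factors are described here in the thymus of Holstein cows given the glucocorticoid prednisolone and of untreated cows. The set was fixed by name as 10 genes, FOS, FOSB, JUN, JUNB, JUND, EGR1, EGR2, EGR3, IER2 and ATF3, and a probe belonged to it where the array's gene name or description gave one of these symbols. Probes were found in this way for 9 of the 10 genes, among 15462 distinct symbols on the array. No probe was found for EGR3, so no value is given for it. The 8 prednisolone cows had received 30 mg per head by mouth each day over 35 days, and the 7 control cows had received none. All thymuses were collected at slaughter, and the labels give no age and no interval between the last dose and slaughter. Each animal's RNA went onto its own one-colour oligonucleotide array, and n counts animals throughout.

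Immediate-early genes are switched on within minutes of a stimulus, without the need for new protein, and their RNAs are short-lived. FOS and JUN proteins pair through a leucine zipper to form AP-1, a dimer that binds DNA and drives genes of growth, stress and inflammation. EGR proteins bind DNA through zinc fingers. In thymocytes, the immature T cells of the thymus, AP-1 and EGR factors are known to act downstream of the T cell receptor, and the glucocorticoid receptor is known to interfere with AP-1.

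Each of the 9 genes had 1 probe, printed as 2 spots per array. Every one of these probes was well above background on 8 of 8 prednisolone arrays and 7 of 7 control arrays, and none was saturated. Levels are given as log2 intensity relative to the 75th percentile of the same array, so that 0 is that percentile and a difference of 1 is a doubling. Levels of different probes are not set against each other, since probes bind with different strength. FOS, JUNB, JUND, IER2 and ATF3 probes were also tied to the gene by a gene number or accession, whereas those of FOSB, JUN, EGR1 and EGR2 rest on the array's own description.

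The groups were spread unevenly over the 4 slides that carried the 15 arrays. Prednisolone and control animals shared 3 of them: slide 1 held prednisolone animal 6 with controls 1, 2 and 5, slide 2 held prednisolone animals 3, 5 and 8 with control 3, and slide 3 held prednisolone animal 1 with controls 4, 6 and 7. Slide 4 held prednisolone animals 2, 4 and 7 and no control, and its arrays had 840 to 1050 bovine spots marked as outliers, against 5 to 17 on each other array. Of 17 thymocyte markers 14 were kept, and 13 of these were above background on all arrays. Their mean level ran from 2.53 to 2.74 in prednisolone animals and from 2.48 to 2.70 in controls. Macrophage and neutrophil markers were lower in prednisolone animals for 9 of 9 kept genes, and erythroid markers for 3 of 3. Adipocyte markers were higher for 5 of 5, B cell for 5 of 6, muscle for 6 of 7 and thymocyte for 11 of 14. Markers of thymic epithelium and of endothelium and fibroblast went both ways. Over all probes tested 8016 were higher and 8052 lower. No marker had a limma adjusted p under 0.05. The tissue is bulk thymus, so that fewer cells of a type and less RNA per cell cannot be told apart.

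None of the immediate-early factors passed the test between prednisolone and control animals. With limma, 0 of 9 genes had an adjusted p under 0.05, and 0 of 9 had an unadjusted p under 0.05. Over all 16068 probes tested, 0% were called at the adjusted threshold and 7.08% (1138 probes) had an unadjusted p under 0.05. Of the 9 differences 6 were above 0 and 3 below, with a median of 0.082 on the log2 scale, against a median of -0.00044 over all probes tested. JUND changed sign under median centring and normexp background correction, and EGR1 and ATF3 under normexp. For every gene the ranges of prednisolone and control animals overlapped. How many of all probes tested do so was not computed, so this does not set the members apart.

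**Figure D1:**
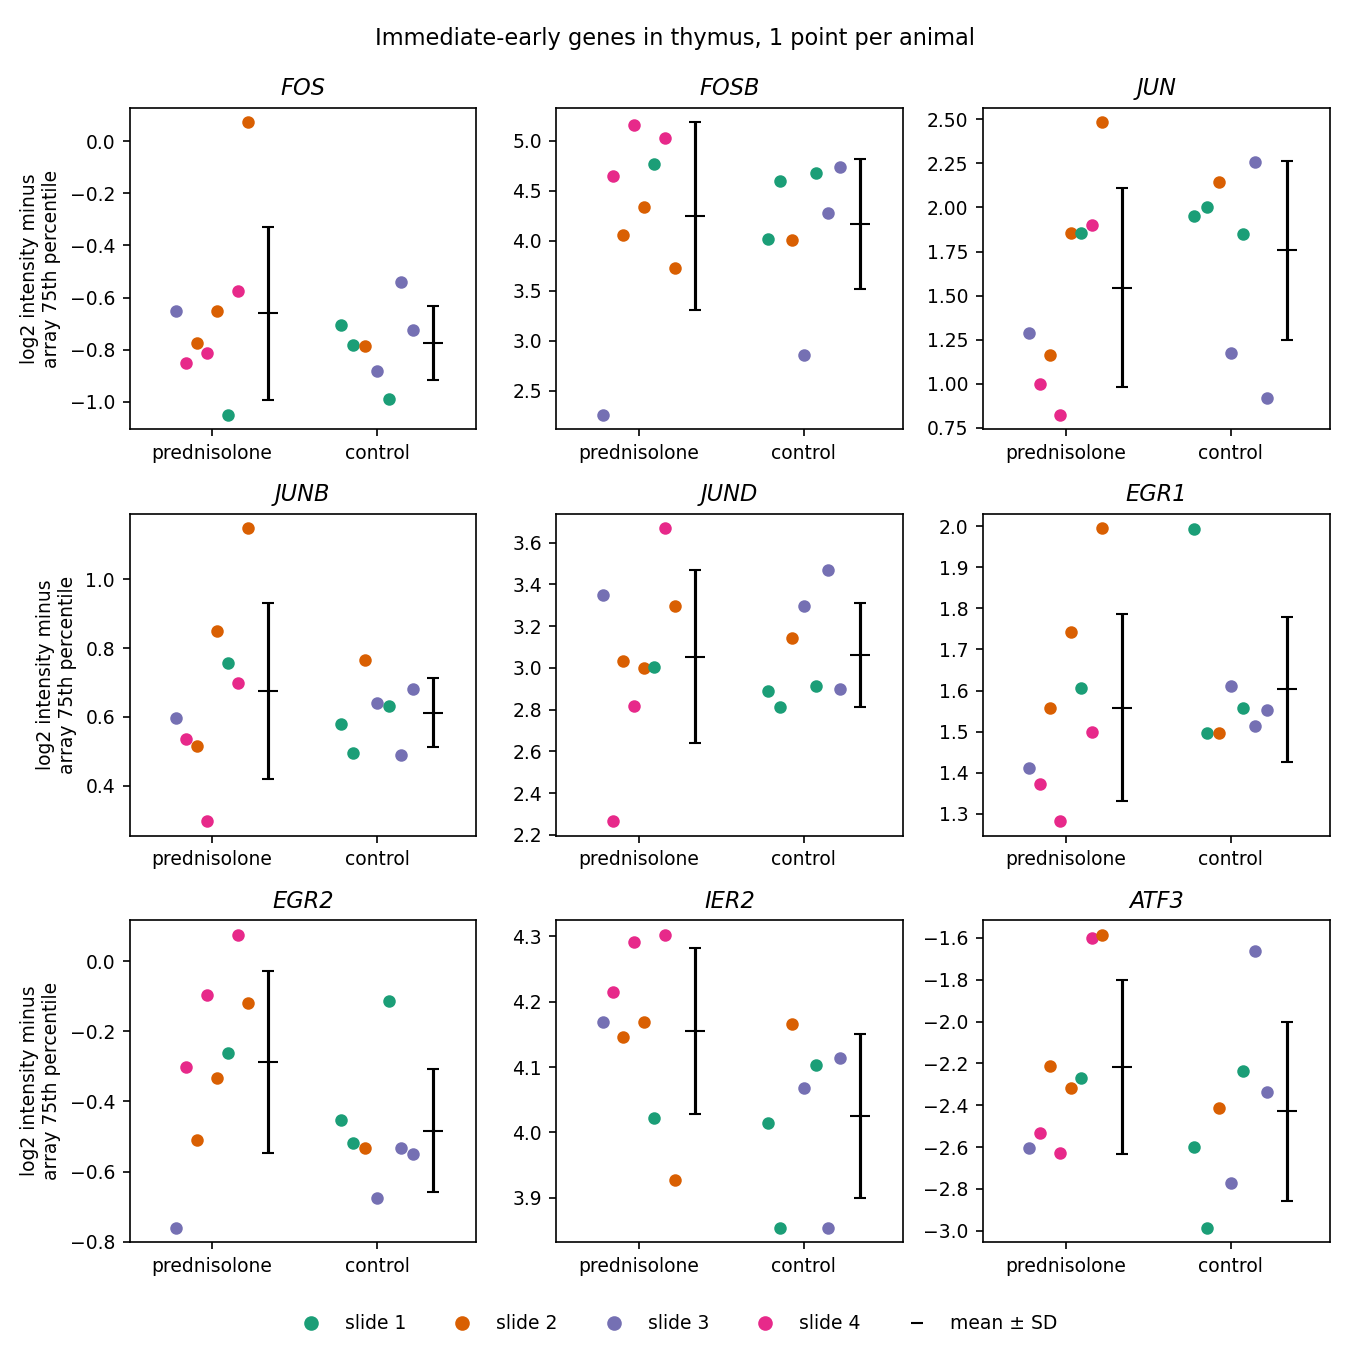
Level of each of the 9 genes (vertical axis, log2 intensity minus the array's 75th percentile) in prednisolone animals on the left and control animals on the right. Each point is 1 animal coloured by slide, and bars are the group mean ± SD (n = 8 and n = 7). The groups overlap in every panel, and prednisolone animal 8 lies far above the others for FOS.

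FOS, the founding partner of JUN in AP-1, had levels of -1.05 at the lowest, -0.71 at the median and 0.0725 at the highest in prednisolone animals, against -0.99, -0.78 and -0.54 in controls. The highest value belonged to prednisolone animal 8, and the other 7 prednisolone animals lay from -1.05 to -0.58. The mean level was -0.66 ± 0.33 in prednisolone animals (SD, n = 8) and -0.77 ± 0.14 in controls (SD, n = 7). That is a log2 difference of 0.11 ± 0.13 (SE, limma adjusted p = 0.899, exact permutation p = 0.4995), with a 95% interval from -0.17 to 0.394. Without prednisolone animal 8 the difference was 0.0074. On slide 4 the FOS value of prednisolone animals 2 and 4 rests on 1 of the 2 spots, and the difference was 0.059 with the marked spots kept.

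FOSB, a close relative of FOS that also pairs with JUN proteins, varied most between animals. Its levels were 2.26 at the lowest, 4.49 at the median and 5.16 at the highest in prednisolone animals, against 2.86, 4.28 and 4.73 in controls. Both groups held 1 animal far below the rest, prednisolone animal 1 at 2.26 and control 4 at 2.86, and the next animal up was at 3.73. Means were 4.25 ± 0.94 in prednisolone animals (SD, n = 8) and 4.17 ± 0.65 in controls (SD, n = 7). The log2 difference was 0.082 ± 0.39 (SE, limma adjusted p = 0.981), and its 95% interval ran from -0.754 to 0.919. This interval corresponds to a fold between 0.593 and 1.89, so that a moderate change in either direction was not detectable with these animals.

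A second FOSB probe, found by its gene number and not by the symbol rule, did not follow the first. Its mean level was 0.42 ± 0.34 in prednisolone animals (SD, n = 8) and 0.56 ± 0.31 in controls (SD, n = 7), a log2 difference of -0.14 ± 0.16 (SE, limma adjusted p = 0.895). Across the 15 animals the values of the 2 probes had a Pearson r of 0.134 and a Spearman rho of 0.029, and r was 0.145 with slide means removed. The first probe was designed on an expressed sequence tag that the array's description likens to FOSB, and the second on a predicted FOSB transcript. The statements on FOSB below concern the first probe unless the second is named.

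JUN, the AP-1 subunit that binds DNA with FOS or with itself, was at 0.82 at the lowest, 1.57 at the median and 2.48 at the highest in prednisolone animals, and at 0.92, 1.95 and 2.26 in controls. The values fell into separate sets, 6 animals from 0.82 to 1.29 and 9 animals from 1.85 to 2.48, with a gap of 0.56 between them. The lower set held 4 prednisolone animals and 2 controls, and the upper set 4 prednisolone animals and 5 controls. Mean levels were 1.55 ± 0.56 in prednisolone animals (SD, n = 8) and 1.76 ± 0.51 in controls (SD, n = 7). Prednisolone minus control was -0.21 ± 0.26 on the log2 scale (SE, limma adjusted p = 0.908), with a 95% interval from -0.767 to 0.346. Single animals moved it: JUN's difference was -0.107, -0.132 and -0.345 without prednisolone animals 4, 2 and 8, and -0.127 and -0.350 without controls 6 and 7.

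JUNB, a JUN relative that also binds in AP-1, had levels of 0.30, 0.65 and 1.15 (lowest, median and highest) in prednisolone animals, against 0.49, 0.63 and 0.77 in controls. The controls lay inside the range of the prednisolone animals, and the 2 highest values belonged to prednisolone animals 8 and 5. Means were 0.67 ± 0.25 in prednisolone animals (SD, n = 8) and 0.61 ± 0.0996 in controls (SD, n = 7), a log2 difference of 0.0625 ± 0.10 (SE, limma adjusted p = 0.935). Without prednisolone animal 8 the JUNB difference was -0.0050.

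JUND, the JUN family member known for a steady rather than an induced level, was at 2.27, 3.02 and 3.67 (lowest, median and highest) in prednisolone animals and at 2.81, 2.91 and 3.47 in controls. Prednisolone animals held both the lowest value, in animal 2, and the highest, in animal 7, and both lay on slide 4. Means were 3.05 ± 0.42 in prednisolone animals (SD, n = 8) and 3.06 ± 0.25 in controls (SD, n = 7). This gave a log2 difference of -0.0068 ± 0.17 (SE, limma adjusted p = 0.996), with a 95% interval from -0.374 to 0.36.

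EGR1, a zinc finger factor induced by T cell receptor and growth factor signals, had levels of 1.28, 1.53 and 1.99 (lowest, median and highest) in prednisolone animals, against 1.496, 1.55 and 1.99 in controls. Prednisolone animal 8 and control 1 stood at 1.995 and 1.994, and the next animal was at 1.74. Means were 1.56 ± 0.23 in prednisolone animals (SD, n = 8) and 1.603 ± 0.18 in controls (SD, n = 7). The log2 difference was -0.045 ± 0.11 (SE, limma adjusted p = 0.958), and it turned to 0.021 without control 1.

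EGR2, which like EGR1 acts below the T cell receptor in developing thymocytes, was at -0.76, -0.28 and 0.0751 (lowest, median and highest) in prednisolone animals and at -0.68, -0.53 and -0.11 in controls. Of the 8 prednisolone animals 7 lay above the control median, and control 5 lay inside the upper part of the prednisolone range. Means were -0.29 ± 0.26 in prednisolone animals (SD, n = 8) and -0.48 ± 0.18 in controls (SD, n = 7). The log2 difference was 0.19 ± 0.12 (SE, limma adjusted p = 0.755, exact permutation p = 0.118), with a 95% interval from -0.0526 to 0.441. The 3 animals of slide 4 rest on 1 of the 2 EGR2 spots, and the difference was 0.10 with the marked spots kept.

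IER2, a nuclear protein induced early by growth factors, varied least, with levels of 3.93, 4.17 and 4.30 (lowest, median and highest) in prednisolone animals, against 3.85, 4.07 and 4.17 in controls. Of the 8 prednisolone animals 6 lay above the control median, and the 3 highest values, 4.30, 4.29 and 4.21, belonged to the 3 animals of slide 4. Means were 4.16 ± 0.13 in prednisolone animals (SD, n = 8) and 4.02 ± 0.13 in controls (SD, n = 7). The log2 difference was 0.13 ± 0.075 (SE, limma adjusted p = 0.743, exact permutation p = 0.0692), a fold of 1.09 with a 95% interval from 0.981 to 1.22.

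ATF3, a bZIP factor induced by stress that can pair with JUN proteins, was at -2.63, -2.29 and -1.58 (lowest, median and highest) in prednisolone animals and at -2.99, -2.42 and -1.66 in controls. Prednisolone animals 7 and 8 and control 6 stood above the other 12 animals by a gap of 0.55. Means were -2.22 ± 0.42 in prednisolone animals (SD, n = 8) and -2.43 ± 0.43 in controls (SD, n = 7). The log2 difference was 0.21 ± 0.21 (SE, limma adjusted p = 0.863), with a 95% interval from -0.227 to 0.65. It was 0.123 and 0.121 without prednisolone animals 7 and 8, and 0.119 and 0.3395 without controls 2 and 6.

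Several of these differences changed when slide was put into the fit. With slide as a block in the limma fit 0 of 9 genes were called, and the log2 difference was 0.034 ± 0.087 for IER2 and 0.047 ± 0.12 for EGR2 (SE). Slide means accounted for 50.3% of the variance of IER2 and 60.1% of that of EGR2, against a median of 42.8% over the kept probes. FOSB turned to -0.44 ± 0.39 (SE) with the block. Within slide 3, FOSB was at 2.26 in the 1 prednisolone animal and averaged 3.96 in the 3 controls, a difference of -1.70, whereas slides 1 and 2 gave 0.34 and 0.030.

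Within slides 1, 2 and 3, IER2 differed by 0.031, -0.085 and 0.16 between prednisolone and control animals, and EGR2 by 0.10, 0.21 and -0.17. FOS differed by -0.22, 0.34 and 0.064 within the same slides. JUN had differences of -0.080, -0.31 and -0.16 there, all below 0, though slides 1 and 3 held 1 prednisolone animal each and slide 2 held 1 control. Slide 4 held no control, so it gives no such value, and there slide and treatment cannot be told apart.

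**Figure D2:**
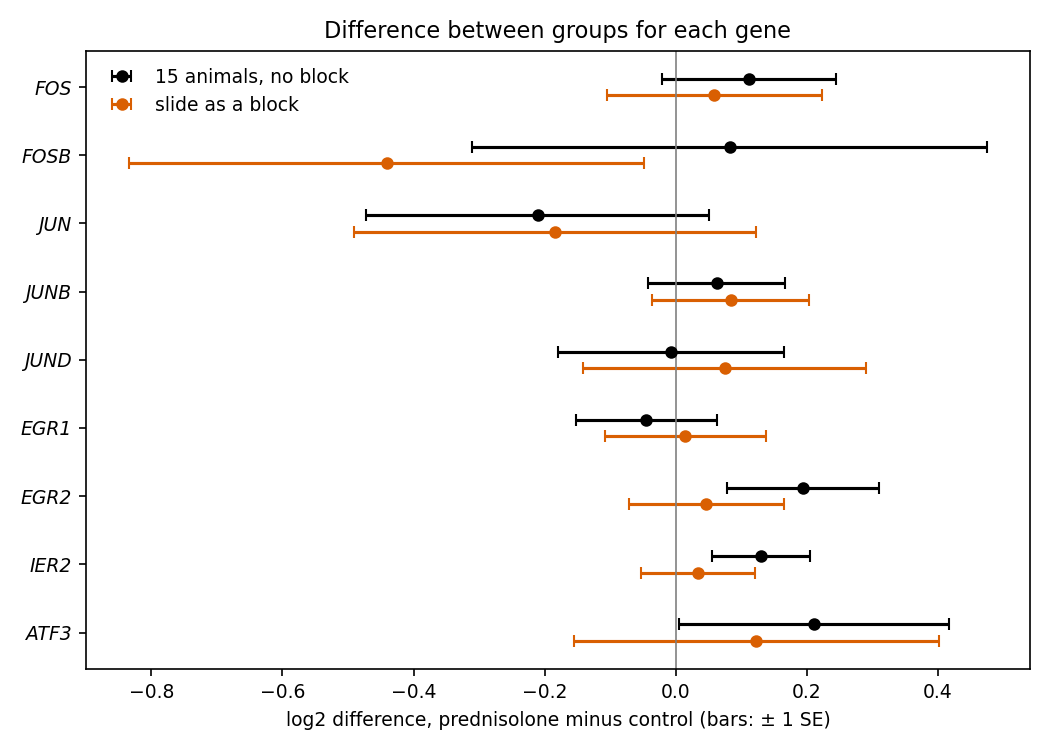
Log2 difference between prednisolone and control animals (horizontal axis) for each gene (vertical axis), without a block in black and with slide as a block in orange. Bars are ± 1 SE. FOSB moves from 0.082 to -0.44 with the block, and IER2 and EGR2 move to 0.034 and 0.047.

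For each of the 9 genes the SD over all animals exceeded the difference between the group means. The share of all kept probes with this trait was not computed, so it does not set the members apart. The SD of FOSB over the 15 animals exceeded that of 94.1% of kept probes, and its highest and lowest animals differed 7.45-fold. This holds for the first FOSB probe only, as the second stood at the 61.9th percentile with a 2.05-fold range. JUN stood at the 85.1st percentile with a 3.16-fold range, and ATF3 at the 75.3rd with a 2.64-fold range. At the other end, IER2 stood at the 13.2nd percentile with a 1.36-fold range. FOS, with a 2.18-fold range, was at the 49.7th percentile, close to the middle of all kept probes.

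Prednisolone animal 8 was the highest of the 15 animals for 5 of 9 genes, FOS, JUN, JUNB, EGR1 and ATF3. Prednisolone animal 7 was the highest for JUND, EGR2 and IER2, and prednisolone animal 4 for FOSB. Over the 16002 kept probes with a value in every animal, prednisolone animal 8 was the highest in 10.5% and prednisolone animal 7 in 10.4%. Among 32 other immediate-early genes each of these animals was the highest for 7, or 21.9%. Those of prednisolone animal 8 were DUSP1, NR4A1, NR4A3, PLAUR, RHOB, THBS1 and ZFP36. It was not high throughout, ranking 13 of 15 from the top for FOSB and for IER2 and lowest for MCL1 and MYC. The same animal had the highest mean of the macrophage and neutrophil markers (1.46) and the lowest mean of the thymic epithelium markers (0.77). Its mean of the muscle markers was also the highest (-0.90), close to that of control 6 (-0.92). The part of these cell types in its immediate-early levels was not tested, and relations over all animals are given below.

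**Figure D3:**
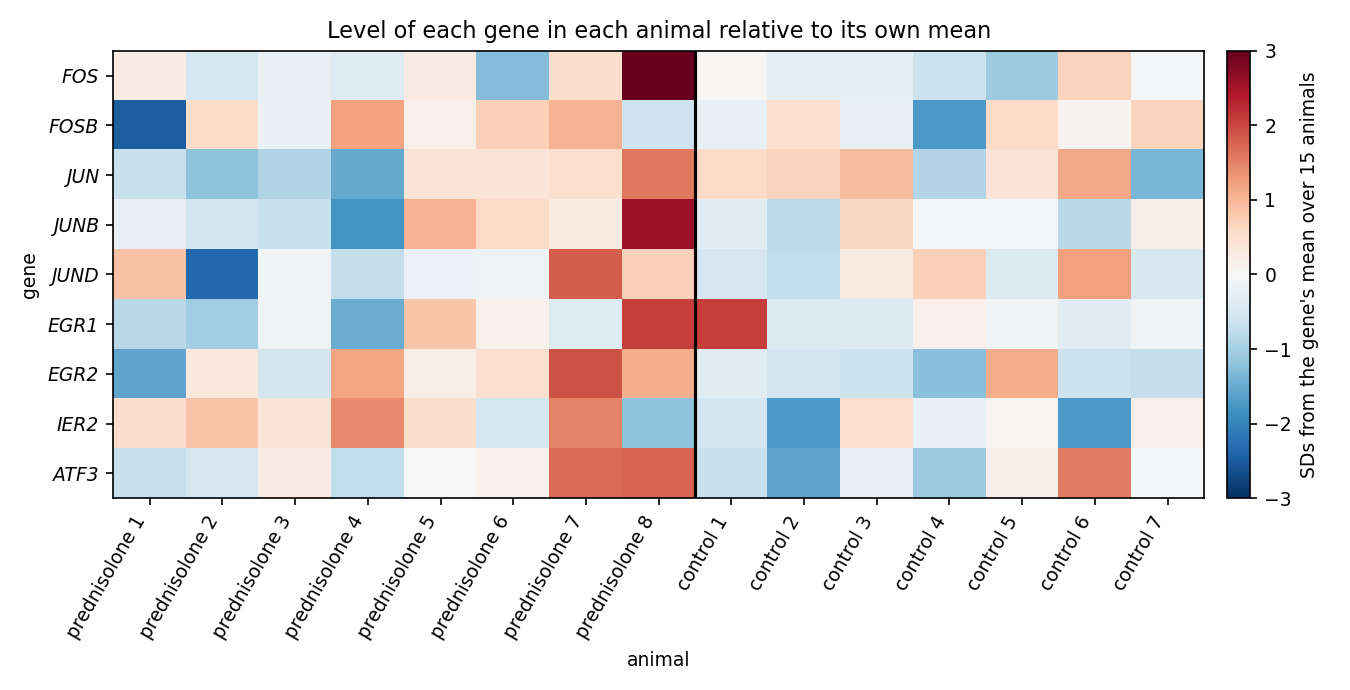
Level of each gene (rows) in each animal (columns, prednisolone left of the line and control right of it), as SDs from the gene's mean over the 15 animals. Red is above and blue below the mean. Prednisolone animal 8 is red for FOS, JUN, JUNB, EGR1 and ATF3, and prednisolone animal 1 and control 4 are the bluest for FOSB.

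Since these factors are known to be switched on together, their levels were compared across the 15 animals. Of 36 pairs of genes 25 had a Pearson r above 0, with a median of 0.200, or 0.377 with slide means removed. After Benjamini-Hochberg adjustment over the 36 pairs 0 passed by permutation, with Pearson's r, with Spearman's rho or with slide means removed, and 8 had an unadjusted p under 0.05. Of these 8 pairs 3 included JUN, whose values lay in separate sets, so that no pooled r is given for them. The median r over the pairs was 0.342 within prednisolone animals and -0.006 within controls, and this difference was not tested. How often pairs of other probes reach such values was not computed, so these counts and medians do not set the members apart.

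FOSB and EGR2 had the highest r, 0.68 (permutation p = 0.0039, adjusted p = 0.14), with a Spearman rho of 0.65 (permutation p = 0.010, adjusted p = 0.369). Without the 2 animals farthest from the FOSB median r was 0.44, and with slide means removed it was 0.38. For JUNB and EGR1 r was 0.67 (permutation p = 0.0085, adjusted p = 0.146) and rho was 0.54 (permutation p = 0.039, adjusted p = 0.42). Here r was 0.23 without the 2 farthest animals and 0.45 without prednisolone animal 8. Within groups it was 0.943 over the 8 prednisolone animals, animal 8 included, and -0.094 over the 7 controls, and this difference was not tested. FOS and ATF3 had an r of 0.60 (permutation p = 0.014, adjusted p = 0.146) and a rho of 0.43 (permutation p = 0.11, adjusted p = 0.42). The r of this pair was 0.55 without the 2 farthest animals and 0.41 without prednisolone animal 8. Prednisolone animals 7 and 8 and control 6, which stood apart for ATF3, were also the 3 highest for FOS. The r over the other animals was not taken, so whether the pooled r rests on these 3 animals is not known.

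For each factor the genes with the most similar pattern were taken as those with the highest Pearson r over the 15 animals after slide means were removed. They were selected from all kept probes for that value and are given as a description. FOS was nearest to CEBPD, a bZIP factor of the C/EBP family (r = 0.947, and 0.546 without removing slide means), then to BMP8A and LAMA5. FOSB was nearest to PSD (0.981, and 0.735 without removing slide means), SNUPN (0.904) and SNAP25, a protein of vesicle fusion (0.882). JUN was nearest to CXADR, a cell adhesion protein, L3MBTL3 and GRK4, but its animals lay in separate sets, which a pooled r joins, so r is given within each set, with slide means kept. Over the 6 animals of the lower set and the 9 of the upper set, r was 0.927 and 0.576 for CXADR and 0.544 and 0.465 for L3MBTL3. For GRK4 it was -0.125 and -0.065. The levels of CXADR, L3MBTL3 and GRK4 did not overlap between the JUN sets. Those of GRK4 ran from -2.53 to -1.95 in the lower set and from -1.75 to -1.24 in the upper set. Because these genes were selected for their r with JUN over the same animals, their separation is no support for the sets. The share of all kept probes that separate in this way was not computed.

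JUNB was nearest to OLFML2A, MYLIP and the integrin subunit ITGAV, although OLFML2A had an r of only 0.154 before slide means were removed. JUND was nearest to MARCHF9 (0.942, and 0.727 without removing slide means), SURF4 and UPF1, a helicase of nonsense-mediated decay. EGR1 was nearest to the enolase ENO2 (0.840, and 0.516 without removing slide means), FSTL3 and CADM3. EGR2 was nearest to KCTD12, HS1BP3 and TNFAIP3, a feedback inhibitor of NF-kappaB, but r without removing slide means was -0.053 for KCTD12 and 0.167 for TNFAIP3. IER2 was nearest to GRAMD4 (0.850, and 0.626 without removing slide means), SLC46A2 and RBM25. ATF3 was nearest to BTRC (0.932, and 0.697 without removing slide means), TNFRSF12A (0.919) and TRIB1 (0.898). For ATF3, 3 animals stood above the other 12, and r within these sets was not taken.

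The levels were also set against the mean of each of 8 marker lists across the animals. Of 72 relations 0 passed by permutation with Pearson's r, and 15 had an unadjusted p under 0.05. The share for other probes was not computed, so this count does not set the members apart. FOSB had an r of -0.69 with the adipocyte markers (permutation p = 0.0038, adjusted p = 0.16) and a rho of -0.50 (permutation p = 0.059, adjusted p = 0.32). The r was -0.48 without the 2 animals farthest from the median of the marker mean, -0.61 with slide means removed, -0.705 within prednisolone animals and -0.75 within controls. The 4 animals lowest for FOSB, prednisolone animals 1 and 8 and controls 4 and 3, were the 4 with the highest adipocyte means, at 0.184, -0.145, -0.631 and -0.598. Of the 7 adipocyte markers 5 were kept, and probes of ADIPOQ and LEP were not. The second FOSB probe had an r of -0.046 and a rho of 0.011 with the same markers (permutation p = 0.87 and 0.97), and the difference between the probes was not tested. The relation was not particular to FOSB, and 2 other members went the other way with these markers. For JUND r was 0.65 (permutation p = 0.0074, adjusted p = 0.18) and rho was 0.73 (adjusted permutation p = 0.095). For JUNB r was 0.55 (permutation p = 0.030, adjusted p = 0.22) and rho was 0.56 (adjusted permutation p = 0.30). The part of fat cells in the FOSB, JUND and JUNB values was not tested. With the macrophage and neutrophil markers r was 0.61 for JUNB, 0.54 for EGR1 and 0.52 for FOS (adjusted permutation p = 0.22 each). Without prednisolone animals 4 and 8, farthest from the median of that marker mean, it was 0.25, 0.22 and 0.43. For JUND and ATF3 r was 0.34 and 0.052, and for FOSB, EGR2 and IER2 -0.42, -0.36 and -0.42. JUN is left out here because its values lay in separate sets.

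With Spearman's rho 1 of the 72 relations passed, that of JUN with the thymic epithelium markers (rho = -0.80, adjusted permutation p = 0.041). With Pearson's r it did not pass (adjusted permutation p = 0.16). Because JUN lay in separate sets, r was taken within each, and it was -0.43 over the 6 animals of the lower set and -0.72 over the 9 of the upper set. Prednisolone animal 8, in the upper set, had both the highest JUN level (2.48) and the lowest marker mean (0.77). The r of the upper set without this animal was not taken. With the same markers r was -0.59 for FOS, -0.58 for JUNB and 0.57 for IER2 (adjusted permutation p = 0.22 each). Without control 2 and prednisolone animal 8, farthest from the median of the marker mean, it was 0.044, -0.44 and 0.21.

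**Figure D4:**
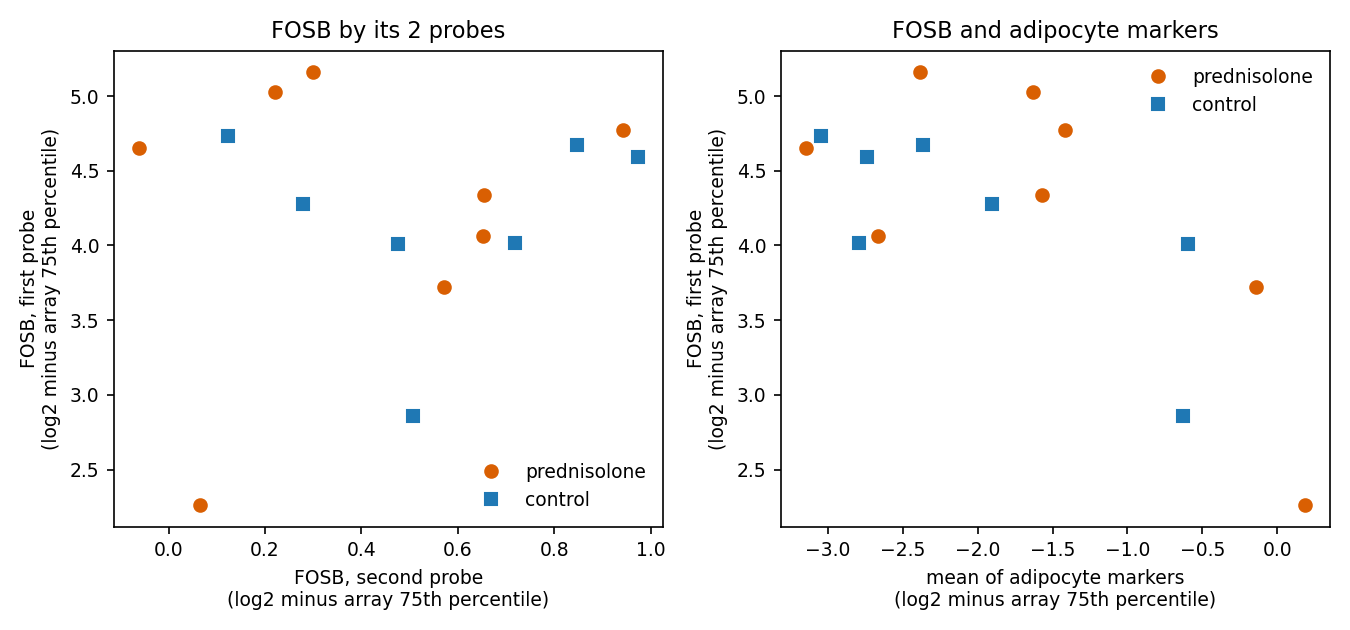
Level of the first FOSB probe (vertical axes, log2 minus the array's 75th percentile) against the second FOSB probe on the left and against the mean of the adipocyte markers on the right. Circles are prednisolone animals and squares are controls. The 2 probes show no common order (r = 0.134), and the 4 animals lowest for FOSB are the 4 highest for adipocyte markers.

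The genes around the factors were read from lists drawn up with earlier results of these data known. In none of the 5 lists did a gene pass limma's adjusted threshold, and their counts at an unadjusted p under 0.05 stand beside 7.08% of all probes tested. Of the AP-1 and bZIP relatives 19 of 23 were kept, 8 higher and 11 lower in prednisolone animals with a median log2 difference of -0.0355, and 1 (5.26%) had an unadjusted p under 0.05. That was ATF6, a factor of the endoplasmic reticulum stress response, at -0.51 ± 0.185 (SE, limma adjusted p = 0.655), and MAFK followed at 0.15 ± 0.093 (SE). Of the EGR relatives and regulators 8 of 10 were kept, 3 higher and 5 lower, with a median of -0.069 and 0 under an unadjusted p of 0.05. EGR4 had a difference of -0.73 ± 0.456 (SE) and KLF9, a glucocorticoid-induced zinc finger factor, one of -0.17 ± 0.16 (SE), and with slide as a block these were -0.19 and -0.388.

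Among other immediate-early genes 32 of 37 were kept, 18 higher and 14 lower, with a median of 0.020 and 4 (12.5%) under an unadjusted p of 0.05. SRF, the factor that binds the promoters of many immediate-early genes, had a difference of 0.30 ± 0.10 (SE, limma adjusted p = 0.648), and BTG1, an antiproliferative gene, one of -0.25 ± 0.098 (SE). For upstream kinases and activators 26 of 27 were kept, 17 higher and 9 lower, with a median of 0.038 and 5 (19.2%) under an unadjusted p of 0.05. RASGRP1, which activates Ras below the T cell receptor, had a difference of 0.31 ± 0.10 (SE, limma adjusted p = 0.615), and the GTPase HRAS one of -0.44 ± 0.16 (SE). Of the target genes of AP-1 and EGR 20 of 25 were kept, 13 higher and 7 lower, with a median of 0.090 and 1 (5%) under an unadjusted p of 0.05. That was the vessel growth factor VEGFA, at 0.30 ± 0.12 (SE, limma adjusted p = 0.655) and at 0.142 with slide as a block, followed by the adhesion molecule ICAM1 at 0.18 ± 0.0845 (SE).

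**Figure D5:**
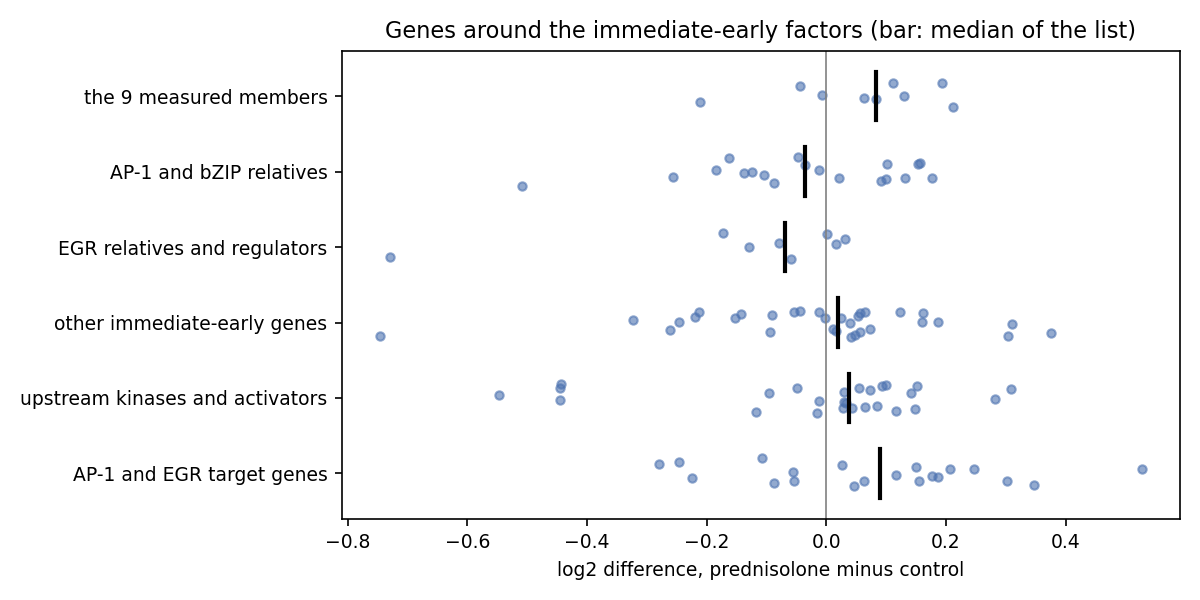
Log2 difference between prednisolone and control animals (horizontal axis) for each kept gene of the set and of 5 lists around it. Points are genes, spread vertically only for legibility, and bars are list medians. The medians lie between -0.069 and 0.090, and no gene shown passed the adjusted threshold.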

How the data were processed

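Thymus RNA of 15 cows was measured on one-colour arrays (8 prednisolone, 7 control), grouped by the treatment label. The replicate numbers only follow sample order. P-values set a difference or correlation against the spread between animals, whose number sets the precision. The main limma fit and the main permutations hold no term for slide.

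The deposited scanner files hold each spot's intensity, which per the file headers Feature Extraction 9.5.1.1 had background-subtracted and detrended. Other columns used are spot flags. The authors' deposited value table is also an intensity on a linear scale and in the same direction, with column medians from 188.5 to 274.1 and a rank correlation with the scanner signal of at least 0.99963. Its centring is not known. R 2.11.1 is the tool given in the submitters' processing notes.

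Here each array's 75th percentile over 42990 bovine spots was subtracted from log2 intensity, outlier spots were left out and spots of a probe averaged. Of 21475 probes, symbols came from a RefSeq gene number or accession (13115), description (3866) or gene name (74), and 4420 were unnamed. Probes above background on at least 7 arrays were kept (16069, of which 16068 could be tested). The comparison of groups used limma 3.58.1 (R 4.3.3) and Benjamini-Hochberg adjustment over all kept probes and a threshold of 0.05. Pairs were tested with 1e+05 permutations in Python 3.11.15 (numpy 2.4.6), and single genes by exact permutation over 6435 divisions of the animals. All tests were two-sided. The brightest kept probe stood for a gene. The calculation was tested on simulated data.

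Members, lists and tests were chosen with earlier results of these data known. Named are all members, the 2 genes of smallest p per list where none passed, and the 3 nearest genes per member. Alternatives were quantile and median centring, normexp (offset 50), other filters on dim probes, the authors' values, no removal of outlier spots, a fixed or random block for slide, slide 4 left out, trend and robust, array weights and each animal left out. The relations within groups, within the sets of JUN values and with marker lists, and the second FOSB probe, were added after the data were seen.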

Additional observations from a re-analysis of the deposited data

Results flagged for a closer look

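For 4 genes 1 animal stood apart from the rest of its group, judged by its gap to the nearest animal as a share of the group's whole range. Both groups were examined for each of the 9 genes and for the second FOSB probe. For normally distributed values, chance gives such a gap in about 1 in 20 groups. For FOS the highest prednisolone animal, number 8, had a share of 0.577. For FOSB the lowest control, number 4, had a share of 0.616. For EGR1 the highest control, number 1, had a share of 0.771, and for EGR2 the highest control, number 5, one of 0.606.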

How the results depend on the processing

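No member was called under any of 27 alternatives (limma). JUN, IER2, EGR2 and FOS kept the sign of their difference in every fit over several slides. With slide as a fixed block the difference was -0.44 for FOSB, 0.0032 for the second FOSB probe, 0.075 for JUND and 0.015 for EGR1. With a random block it was -0.20 for FOSB and 0.036 for JUND. Without slide 4 it was -0.34 for FOSB, 0.017 for the second FOSB probe, 0.075 for JUND and 0.060 for EGR1. Array weights gave -0.035 for FOSB and 0.032 for JUND, and median centring gave 0.015 for JUND. Normexp, which moved the median of all probes by -0.21, gave 0.148 for JUND, 0.12 for EGR1 and -0.20 for ATF3, and IER2 then had an unadjusted p of 0.044 (limma adjusted p = 0.236). Unadjusted p (limma) was also under 0.05 for IER2 without prednisolone animal 8 (0.039, adjusted p = 0.592), and for EGR2 without prednisolone animal 1 (0.021, adjusted p = 0.554) or control 5 (0.037, adjusted p = 0.733). With each animal left out in turn, differences ran from -0.107 to 0.021 for EGR1, -0.136 to 0.366 for FOSB, -0.095 to 0.106 for JUND, -0.0050 to 0.116 for JUNB, -0.350 to -0.107 for JUN and 0.119 to 0.340 for ATF3. The cause of these changes was not tested.

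Over all probes, quantile normalization called 1 (ACYP1), and leaving out an animal called 0 to 3, the 3 (TRADD and 2 unnamed) without prednisolone animal 1. Pairs called ranged from 0 to 1: without control 1 JUNB and EGR1 passed (r = 0.886, adjusted permutation p = 0.0036), and without prednisolone animal 8 FOSB and EGR2 did (r = 0.779, adjusted permutation p = 0.034). No paired analysis was possible because the animals of the groups are different and their numbers only follow sample order. Scan day could not be tried, since there was only 1.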
